A study of Mus musculus with 8 samples.

Results

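The mRNAs of 83 cytosolic ribosomal proteins were followed in whole bone marrow (BM) of mice with reduced or absent Gfi1. Members were taken by symbol. They are the protein-coding genes of the GENCODE annotation whose symbols start with Rpl or Rps followed by a digit, by p (the stalk proteins) or by a (Rpsa), without the S6 kinases and without symbols that mark pseudogenes. Of 86 such genes among the 41214 counted, 83 had at least 1000 counts summed over the 8 libraries. The other 3 were Rpl3l, Rpl39l and Rpl10l, paralogs of Rpl3, Rpl39 and Rpl10, with 139, 41 and 0 counts in all. The rule uses no measured difference between groups, though it was set with earlier results of these data known. The 83 comprise 33 symbols of the small and 48 of the large subunit, and 2 genes that carry such a symbol but do not encode a structural subunit. These 2 are Rpl7l1, a relative of Rpl7 known from subunit assembly, and Rps19bp1, named for binding Rps19.

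Each ribosome carries a single copy of nearly every ribosomal protein, so cells make these proteins in step with one another. Their mRNAs are among the most abundant of any dividing cell, and many start with a C followed by a run of pyrimidines, the 5′ TOP (terminal oligopyrimidine) element through which mTOR signalling sets their translation. In BM their loss is known from inherited and acquired anemias, in which red cell precursors are most affected.

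Gfi1 is a transcriptional repressor needed for neutrophil and lymphoid development. The 8 C57Bl6 mice formed 4 groups of 2 mice. Young Gfi1 KD mice were 39 and 42 days old, young Gfi1 KO mice 48 and 44 days, old Gfi1 KO mice 158 and 101 days, and sick Gfi1 KD mice 187 and 78 days. In KD mice a human GFI1 coding sequence placed at the Gfi1 locus is expressed at a reduced level, whereas KO mice lack Gfi1. The labels give AML for the sick KD mice and no AML for all others, and the study describes a myeloproliferative disease in them. No wild-type mouse was included, so every comparison is between mutants. Sickness and age change together between young and sick KD mice and cannot be told apart. Each library is one mouse and one sample of mixed marrow cells, in which fewer cells of a type and less RNA per cell cannot be told apart.

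The libraries held 26642067 to 42679114 counts on genes, of which the members took 1150026 to 1913584. The mouse Gfi1 gene itself had 6.17 and 7.03 CPM (counts scaled to the library size and normalized by TMM) in young KD, 5.49 and 7.15 in sick KD, 14.0 and 14.4 in young KO and 13.3 and 29.7 in old KO. Counts on the mouse gene were thus higher in KO than in KD, and since KD mice express a human sequence and the deleted part of the KO allele cannot be read from gene counts, this value checks neither label. The sick KD libraries stood apart in several measures. Alignments outside genes made up 42.0% and 38.8% of unique alignments in sick KD and 26.9% to 33.8% in the other 6, and non-unique alignments were 1.69 and 1.87 per gene count against 1.06 to 1.14. Small nuclear, small nucleolar and miscellaneous RNA took 3.48% and 4.85% of gene counts in sick KD and 1.502% to 1.903% elsewhere.

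Start sites of 63 members had a sequence in the RefSeq promoter table (GRCm38.p6), and 14 of these, or 22.2%, had a C at the annotated start followed directly by at least 4 pyrimidines. Of all 27025 starts in the table, 3.01% did. Of these 14, Rpl38, Rpl35 and Rps27 are shown first, as members with large differences below. Rpl39, Rps14 and Rpl10a, also among the largest differences below, had no start among the 14. Then follow Rpl15 with the longest tract, Rps6, the substrate of S6 kinase, and Rplp2, a member that did not pass the test. Each line runs 15 bases either side of the start, with the pyrimidine tract from the start on in capitals.
Rpl38, chr11:114668565-114668594, plus strand: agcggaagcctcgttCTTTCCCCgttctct
Rpl35, chr2:39005117-39005146, minus strand: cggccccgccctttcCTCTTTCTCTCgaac
Rps27, chr3:90213634-90213663, minus strand: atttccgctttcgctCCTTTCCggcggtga
Rpl15, chr14:18270972-18271001, minus strand: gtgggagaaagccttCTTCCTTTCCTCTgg
Rps6, chr4:86857353-86857382, minus strand: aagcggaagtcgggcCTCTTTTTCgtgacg
Rplp2, chr7:141447636-141447665, plus strand: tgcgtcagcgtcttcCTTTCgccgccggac

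The tracts of the 14 starts were 5 to 13 bases long. With the start allowed to move by up to 10 bases either way, 58.7% of the 63 members and 34.4% of all starts held such a tract. TTCCGG or its reverse complement CCGGAA, a core of ETS factor sites, lay within 100 bases of the start in 44.4% of the members and in 11.8% of all starts. ATGGC or GCCAT, a core of YY1 sites, lay there in 38.1% and 27.0%. TATAAA, 40 to 15 bases before the start, occurred in 1.59% of the members and 2.54% of all starts. The motifs were searched on both strands except TATAAA and the tract, and a match describes letters only.

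Together the members took 4.28% and 4.18% of the gene counts in young KD, 4.48% and 3.93% in young KO, 4.18% and 4.54% in old KO, and 4.74% and 5.19% in sick KD. Both sick KD mice lay above the other 6 mice, which overlapped one another. The mean share was 4.96% ± 0.31 (SD, n = 2) in sick KD and 4.23% ± 0.07 (SD, n = 2) in young KD. With 2 mice against 2, an exact permutation test cannot give a p below 0.333, so the share was not tested.

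**Figure D1:**
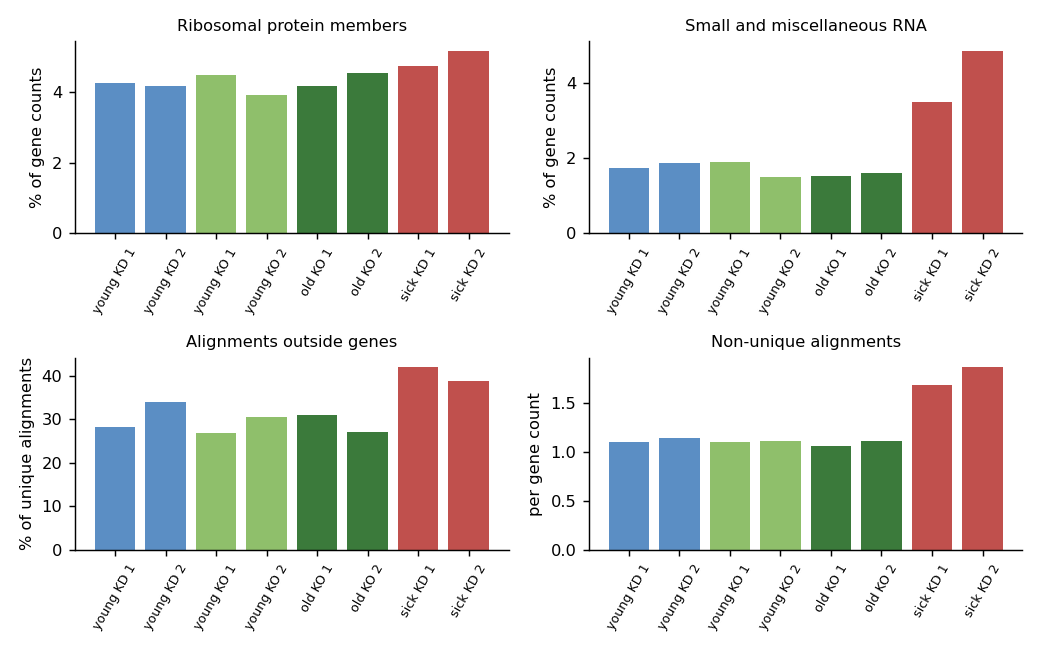
The 4 measures of each of the 8 libraries, 1 bar per mouse, coloured by group: the share of gene counts on the ribosomal protein members, the share on small and miscellaneous RNA, the share of unique alignments outside genes, and non-unique alignments per gene count. The 2 sick KD libraries are the highest in all 4.

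Levels were compared between genes as CPM per kilobase of the longest protein-coding transcript, averaged over the 8 mice. The highest level belonged to Rplp1, an acidic protein of the stalk that recruits elongation factors, with 1691 CPM per kb, and it ranged from 1408 in young KO 2 to 2192 in sick KD 2. Rps12 had 1298 and Rpl13a 1204 CPM per kb. Rplp1 was above both in all 8 libraries, whereas the ranges of Rps12 and Rpl13a over the mice overlapped. At the other end lay the relatives. Rps19bp1 had 12.1 CPM per kb, Rpl7l1 47.9, Rps27rt 49.0, Rpl36al 76.0 and Rpl22l1 103. The order of the high members depends on the transcript length used, and with the principal transcript of each gene Rpl32 (1706) and Rps9 (1551) joined the 5 highest.

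The pool was broad. The 5 members with most counts held 14.9% of all member counts, the 10 largest 25.9% and the 20 largest 43.8%. Rpl4 had the highest CPM of any member, with a mean of 1587 over the 8 mice.

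The young mice were compared first, to ask whether reduced and absent Gfi1 differ before disease. No member was called. Between young KO and young KD, 0 of 83 members passed an adjusted p of 0.05 in edgeR's quasi-likelihood test, 0 had an unadjusted p under 0.05 and 0 were called by DESeq2. Of all 14839 genes tested, 0.0202% were called higher and 0.0202% lower. The median log2 fold change of the members was -0.00, with 38 above and 45 below zero, and the extremes were -0.07 and 0.16. The sign of this median depended on single mice. It was -0.09 without young KO 1 and 0.07 without young KO 2, and 0.02 without young KD 1 and -0.02 without young KD 2. The upper extreme was Rps27l, a p53-responsive relative of Rps27, with 79.6 and 81.9 CPM in young KD and 97.1 and 84.3 in young KO (log2 fold change 0.16 ± 0.09, SE, unadjusted p = 0.125 in edgeR's fit). Rps19bp1 came next (0.13 ± 0.14), and then Rpl22l1, with 51.7 and 51.9 CPM in young KD and 58.6 and 54.3 in young KO (0.12 ± 0.08). Rps27l and Rpl22l1 were the 2 members in which the groups did not overlap, both being higher in KO, and neither passed the test. Groups of 2 did not overlap in this direction in 14.9% of all genes. At the lower end Rps27 had -0.07 ± 0.10, Rps4x -0.07 ± 0.08 and Rpl7 -0.05 ± 0.08.

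Sick KD mice were then compared with young KD mice, the contrast of the diseased marrow with marrow of the same genotype before disease. Ribosomal protein mRNAs were higher in the sick mice. In edgeR's test 42 of 83 members rose and 0 fell, while 9.45% of all 14656 genes were called higher and 11.4% lower. The median log2 fold change was 0.42 for the members and 0.01 over all genes, 81 members were above zero and 2 below, and 64 had an unadjusted p under 0.05. In 76 members both sick KD mice lay above both young KD mice, which held for 34.3% of all genes. In 1 member both lay below, which held for 32.4% of all genes. Sick KD 2 was the highest of all 8 libraries for 74 members.

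Members of both subunits rose. Of 33 small subunit members 16 rose, with a median of 0.41, and of 48 large subunit members 26 rose, with a median of 0.45. Without the 4 paralogs and the 2 genes that are no subunit, 40 of 77 rose. Of the 14 members with the pyrimidine tract at the start 7 rose, with a median of 0.43, beside 42 of all 83 members and a median of 0.42.

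**Figure D2:**
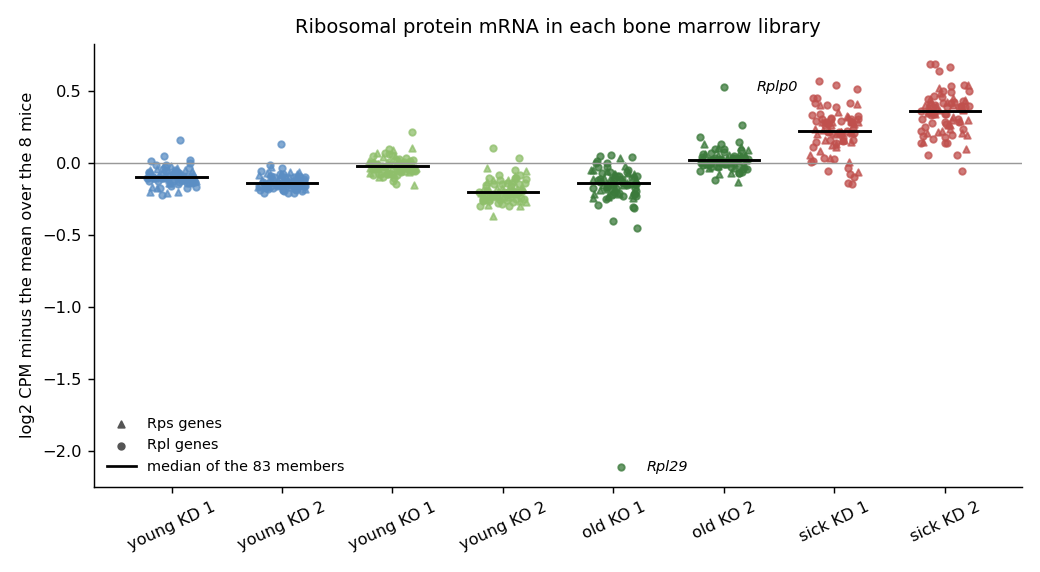
Each point is one of the 83 members in one library, as log2 CPM minus the mean of that member over the 8 mice, with triangles for Rps and circles for Rpl genes and a bar at the median. The sick KD libraries have medians of 0.22 and 0.36 and the other 6 lie between -0.20 and 0.02, and Rpl29 in old KO 1 (-2.11) and Rplp0 in old KO 2 (0.53) stand away from the rest.

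The largest rise was that of Rpl38, a large subunit protein known for the translation of Hox mRNAs. It had 203.5 and 207.8 CPM in young KD, 224.8 and 192.7 in young KO, 191.3 and 218.7 in old KO, and 346.2 and 381.8 in sick KD. Both sick KD values were far above the other 6, which lay within 191.3 to 224.8. The log2 fold change against young KD was 0.82 ± 0.11 (SE), or 1.76-fold, with an adjusted p of 0.00835 in edgeR.

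Rpl39, a very small protein of the exit tunnel encoded on the X chromosome, had 369.4 and 361.4 CPM in young KD and 589.0 and 641.7 in sick KD (0.74 ± 0.11, adjusted p = 0.0108 in edgeR). The young KO and old KO mice lay near the young KD values, at 310.8 to 393.2 CPM.

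Rps14, whose haploinsufficiency underlies the anemia of the 5q- syndrome, had 641.0 and 651.2 CPM in young KD and 979.3 and 1054 in sick KD (0.65 ± 0.11, adjusted p = 0.0147 in edgeR). Rpl10a rose from 298.9 and 301.6 to 445.7 and 491.7 CPM (0.64 ± 0.11, adjusted p = 0.0154 in edgeR). Rpl35, beside the exit of the tunnel, rose from 282.3 and 272.9 to 418.9 and 445.4 CPM (0.63 ± 0.11, adjusted p = 0.0144 in edgeR). None of the 3 overlapped between these groups.

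**Figure D3:**
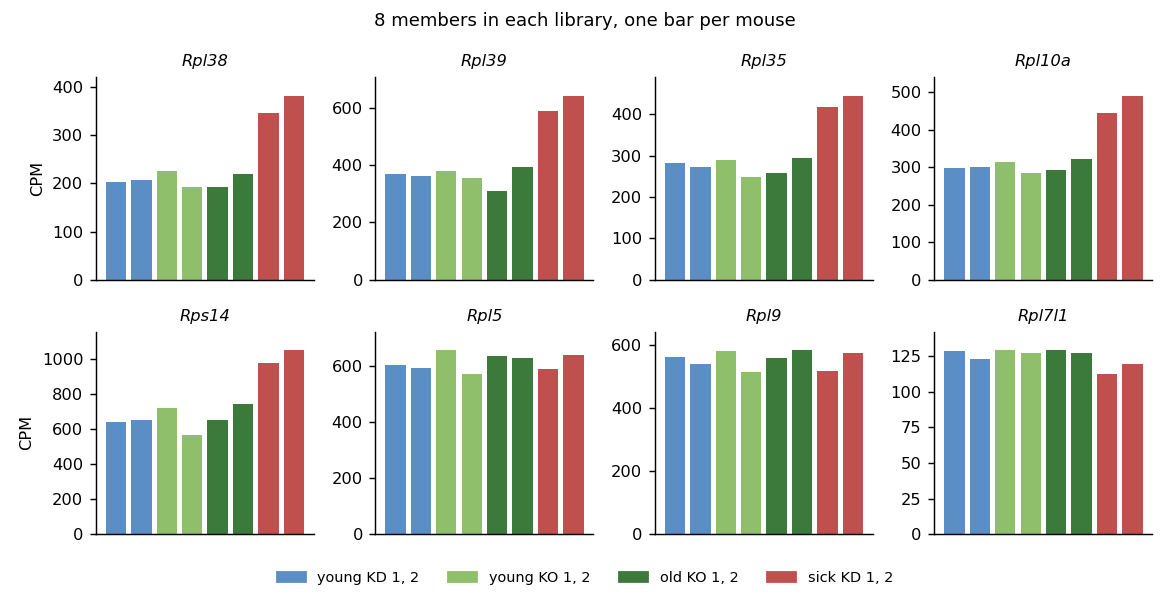
CPM of 8 members in the 8 libraries, 1 bar per mouse with axes from 0. In Rpl38, Rpl39, Rpl35, Rpl10a and Rps14 both sick KD bars are the tallest, whereas in Rpl5 and Rpl9 they lie among the others and in Rpl7l1 they are the lowest.

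Of the 3 stalk proteins 1 was called. Rplp1 had 791.5 and 745.2 CPM in young KD and 1029.9 and 1094 in sick KD, and rose (0.46 ± 0.11, adjusted p = 0.0356 in edgeR). Its partner Rplp2 had 469.0 and 418.4 CPM in young KD and 422.7 and 512.7 in sick KD, with a log2 fold change of 0.07 ± 0.14 (adjusted p = 0.750 in edgeR). Rplp0, the base of the stalk, had 867.1 and 829.2 against 952.2 and 1120.1 CPM (0.28 ± 0.13, adjusted p = 0.160 in edgeR). The difference between the 3 was not tested.

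Rpl5 and Rpl11 form a particle with 5S rRNA that also binds Mdm2, the inhibitor of p53. Rpl5 lies 174466 bases from Gfi1 on chromosome 5 and ranged only from 570.5 CPM in young KO 2 to 656.0 in young KO 1, with 588.6 and 638.1 in sick KD (0.04 ± 0.11 against young KD, adjusted p = 0.845 in edgeR). Rpl11 had 434.8 and 413.3 CPM in young KD and 529.0 and 564.3 in sick KD, and did not pass the test (0.36 ± 0.11, adjusted p = 0.0646 in edgeR). Rpl5 overlapped between the groups and Rpl11 did not.

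Of other members known from anemias, Rps26 rose from 385.9 and 377.8 to 503.2 and 548.2 CPM (0.45 ± 0.11, adjusted p = 0.0351 in edgeR). Rps19, the gene most often mutated in Diamond-Blackfan anemia, had 478.9 and 468.2 against 541.0 and 597.8 CPM (0.26 ± 0.11, adjusted p = 0.150 in edgeR). Rps24 had 677.3 and 657.2 against 831.3 and 921.8 CPM (0.39 ± 0.12, adjusted p = 0.0599 in edgeR). In these 3 genes both sick KD mice lay above all other mice.

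Several members had a log2 fold change near zero. It was -0.02 ± 0.12 for Rpl9, 0.06 ± 0.12 for Rps9, 0.09 ± 0.12 for Rpl23 and 0.12 ± 0.14 for Rpl8, and these overlapped between the groups. Rpl7l1 was the 1 member with both sick KD mice below both young KD mice. It had 128.7 and 123.3 CPM in young KD and 112.7 and 119.9 in sick KD (-0.12 ± 0.10, adjusted p = 0.427 in edgeR). As a percentage of Rpl7, Rpl7l1 was 12.01 and 12.09 in sick KD and 14.9 to 17.3 in the other 6 mice. Rpl9, Rps9, Rpl23 and Rpl8 were chosen after their values were seen, to show the other end of the range.

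The ratio of paralog to parent overlapped between sick KD and the other mice in the 4 paralogs. Rpl22l1, the paralog of Rpl22, a gene deleted in some T-cell leukemias, ran at 12.4% to 17.6% of Rpl22 over the 8 mice, with 16.4% and 13.5% in sick KD. Rpl22 rose (0.54 ± 0.11, adjusted p = 0.0247 in edgeR) and so did Rpl22l1 (0.46 ± 0.11, adjusted p = 0.0304). Rps27l stood at 98.1% and 81.4% of Rps27 in sick KD, with a range of 81.4% to 106% over the 8 mice, and both rose (0.49 ± 0.10 and 0.50 ± 0.12). Rpl36al was 40.1% to 48.4% of Rpl36a. Rps27rt, a retrotransposed copy with 91.1% of its 50-base windows found in other transcripts, was 16.5% to 22.1% of Rps27, and its counts cannot be separated from those of Rps27 with certainty.

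Some ribosomal proteins have symbols that fall outside the rule. Fau, made as a fusion to a ubiquitin-like protein, rose (0.46 ± 0.11, adjusted p = 0.0372 in edgeR). Rack1, a scaffold on the small subunit, had 1602 and 1551 CPM in young KD and 1815 and 1973 in sick KD (0.26 ± 0.12, adjusted p = 0.155 in edgeR).

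The calls depended on both young KD mice. Without young KD 1 or young KD 2 nearly all members lost their calls, though many other genes were still called. The median stayed at 0.43 and 0.37. Without sick KD 1 or sick KD 2 many members were still called, at medians of 0.48 and 0.34. After each library's trend in GC content and transcript length was removed, 34 members were called, 27 of them among the 42. The median fell from 0.42 to 0.22. Of all 14656 genes 2336 were called higher after this removal, beside 1385 before it. Under this correction Rpl35 kept 0.55 of log2 fold change, Rpl38 0.43 and Rpl39 0.42, whereas Rplp1 (0.11), Rps26 (0.17), Rps27 (0.08) and Rps27l (0.04) no longer passed, and Rpl22l1 (-0.10) and Rpl36a (-0.016) were below zero. Members are short, with a median transcript of 914 bases against 2979 for protein-coding genes with counts. Across the 83 members the log2 fold change had a Spearman rho of -0.36 with transcript length and 0.24 with GC content, as a description of genes that share the libraries.

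Cell type markers moved with the same contrast. Summed CPM of 8 B-cell markers was 897.8 and 682.5 in young KD and 29.0 and 83.9 in sick KD, and all 8 fell. The 9 erythroid markers summed to 5406 and 2123 in young KD and 869.8 and 1304 in sick KD, and all 9 fell. The 7 monocyte markers summed to 8295 and 10173 against 14084 and 12826, with 3 of 7 higher, and the 4 promyelocyte markers to 4163 and 4531 against 5927 and 6716, also with 3 higher. The 10 neutrophil markers summed to 1311 and 1557 against 4660 and 1779, with 2 higher and 1 lower. The 6 markers of dividing cells summed to 4102 and 3997 against 4882 and 3905, and 0 of 6 were called. No marker of these lists was at 0 in any library. The part of these shifts, of the reads outside genes and of small RNA in the rise of the members was not tested.

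Old KO mice were compared with sick KD mice of a similar age range, to set the marrow without Gfi1 and without disease against the diseased KD marrow. Members were lower in old KO. Of the 83, 0 were called higher and 13 lower in edgeR's test, while 9.93% of all 14470 genes were called higher and 8.22% lower. The median log2 fold change was -0.37, with 6 above and 77 below zero, and 44 members had an unadjusted p under 0.05, all lower. In 69 members both old KO mice lay below both sick KD mice, against 33.5% of all genes. This comparison shares the sick KD mice with the preceding one. Genotype, sickness and the library measures given above change together in it and cannot be told apart.

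Large differences were again found in Rpl38 (-0.83 ± 0.14, adjusted p = 0.0125 in edgeR), Rpl39 (-0.80 ± 0.16, adjusted p = 0.0209) and Rpl35 (-0.64 ± 0.14, adjusted p = 0.0243). Rpl10a fell by 0.60 (± 0.14) and Rps27 by 0.59 (± 0.13). Rps27 had 82.1 and 87.8 CPM in old KO and 117.0 and 139.8 in sick KD, without overlap. Other called members included Rps25, Rpl22l1, Rpl32, Rpl10, Rps14, Rpl24 and Rps27l, at -0.45 to -0.58. With the GC and length trend removed 11 of the 13 calls remained, and the calls of Rpl22l1 (-0.058) and Rps27l (-0.067) were lost.

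Rpl7l1 was the 1 member with both old KO mice above both sick KD mice, with 129.4 and 127.5 against 112.7 and 119.9 CPM (0.15 ± 0.11, adjusted p = 0.392 in edgeR). Of all genes 32.5% lay this way. Rpl5 (0.04 ± 0.14), Rpl9 (0.07 ± 0.14), Rpl23 (-0.00 ± 0.14) and Rplp2 (0.11 ± 0.16) overlapped between the groups. Rps19 (-0.23 ± 0.14), Rps24 (-0.30 ± 0.14) and Rps26 (-0.47 ± 0.15) did not pass.

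The count of 13 depended strongly on the fit. It was 44 with DESeq2 and 44 when all 8 mice were fitted together. With the GC and length trend removed it was 22, at a median of -0.26. Of all genes, 1189 of 14470 were called lower in the main fit. These were 1423 of 14470 with DESeq2, 1996 of 15102 with all 8 mice and 1860 of 14470 with the trend removed. Without old KO 1 the members lost their calls, and with any other mouse left out most did, though many other genes were still called. The median was -0.27 without old KO 1, -0.45 without old KO 2, -0.43 without sick KD 1 and -0.28 without sick KD 2. All 9 erythroid markers were higher in old KO, at summed CPM of 6186 and 3917 against 869.8 and 1304, and 1 of 8 B-cell markers was higher, at 105.6 and 172.3 against 29.0 and 83.9. Of 10 neutrophil markers 4 were lower and 1 higher in old KO, at 626.6 and 727.3 against 4660 and 1779. Of 7 monocyte markers 2 were lower, at 10577 and 11083 against 14084 and 12826, and of 4 promyelocyte markers 1 was lower, at 4084 and 5302 against 5927 and 6716. Of 6 T-cell and NK-cell markers 3 were higher, with overlapping sums of 65.8 and 83.1 against 74.2 and 68.2. The part of these shifts in the result was not tested.

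**Figure D4:**
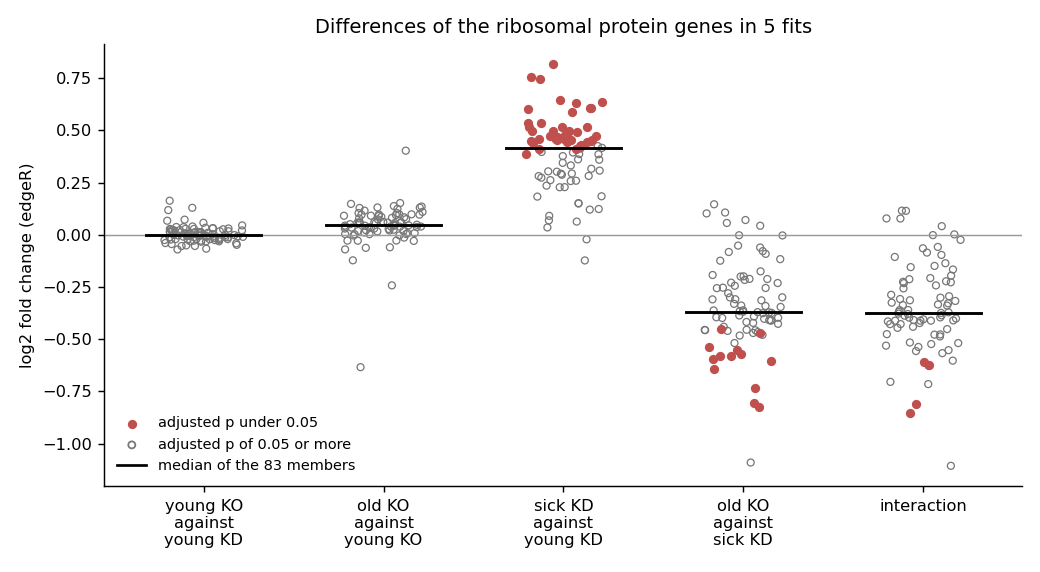
Log2 fold changes of the 83 members in the 4 comparisons and the interaction, with called members filled and a bar at the median. The medians are -0.00, 0.05, 0.42, -0.37 and -0.37 from left to right, and the numbers called are 0, 0, 42, 13 and 4.

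Old KO mice were also compared with young KO mice, the contrast of age without Gfi1 and without disease. No member was called, while 0.323% of all 14847 genes were called higher and 0.606% lower. Of the members 0 had an unadjusted p under 0.05, and DESeq2 called 0. The median log2 fold change was 0.05, with 70 above and 13 below zero, and its sign depended on single mice and on the correction for GC content and length. It was 0.13 without old KO 1 and 0.14 without young KO 1 but -0.03 without old KO 2 and also -0.03 without young KO 2. With the GC and length trend removed it was -0.037, with 24 members above and 59 below zero. The groups overlapped in 82 members, with Rplp2 the exception (464.4 and 439.0 against 478.0 and 527.2 CPM, 0.15 ± 0.10, adjusted p = 0.776 in edgeR). Of all genes, 18.8% had both old KO mice above both young KO mice and 18.9% had both below. Of the marker lists, 7 of 8 B-cell and 2 of 10 neutrophil markers were called lower, and all 9 erythroid markers had positive values without a call. Their part in the members' values was not tested. The largest fitted values were those of Rpl29 (-0.63 ± 0.66) and Rplp0 (0.40 ± 0.22), and each came from a single mouse, as described below. Rpl22l1 had -0.24 ± 0.15 and Rps27l -0.12 ± 0.10.

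The interaction asked whether the KO-to-KD difference was itself different in old and sick mice from that in young mice. In all 8 mice 0 members were called higher and 4 lower, with 4.32% and 3.11% of all 15102 genes. The 4 were Rpl38 (-0.85 ± 0.16, adjusted p = 0.0263 in edgeR), Rpl39 (-0.81 ± 0.17, adjusted p = 0.0360), Rps27l (-0.62 ± 0.13, adjusted p = 0.0365) and Rpl10a (-0.61 ± 0.14, adjusted p = 0.0433). The share of members called lower, 4 of 83, was close to that of all genes, and the median was -0.37 against 0.00 over all genes. Without young KD 1, young KD 2, young KO 1, young KO 2 or old KO 1 none was called, without sick KD 1 only Rpl38, and without old KO 2 there were 5.

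In a single old KO mouse each, 3 members behaved unlike the rest in their own counts or in those of their pseudogenes. They were chosen after their values were seen. Rpl29 of the large subunit, on chromosome 9 (106429454 to 106431568), had 24.2 CPM in old KO 1 and 112.1 to 165.8 CPM in the other 7 mice. Its log2 distance from the median of the other 7 was -2.30, and of 4664 genes with a mean of at least 50 CPM only 9, itself included, lay as far down in that library. The 24 other genes within 1000000 bases with a mean of at least 1 CPM had a median distance of -0.00 and a lowest value of -0.77. Gm10709, a processed pseudogene of Rpl29, was low in the same mouse, with 0.04 CPM in old KO 1 and 1.96 to 3.47 elsewhere.

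Rplp0 had 1360.5 CPM in old KO 2 and 797.4 to 1120.1 in the others. Its log2 distance from the median of the other 7 was 0.65, and 35 of the 4664 genes, itself included, lay as far up in that library. There its pseudogenes went the other way. Gm8730 had 160.6 CPM in old KO 2 and 245.2 to 360.8 elsewhere, and Gm9625 99.2 against 150.6 to 214.3. Rplp0 held 83.6% of the summed CPM of the gene and its 4 copies in old KO 2, and 65.3% to 66.3% in the other 7 mice. The sum was 1627 CPM in old KO 2, and 1203 to 1710 in the others.

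Rpl15 showed the reverse in old KO 1. Of its processed pseudogenes, 3 had counts there and almost none elsewhere. Gm10020 had 9.06 CPM against at most 0.28, Rpl15-ps2 5.99 against at most 0.17 and Gm8885 1.76 against at most 0.05. Rpl15 itself had 203.5 CPM in old KO 1, the lowest of the 8, and 223.6 to 325.9 elsewhere. Its log2 distance was -0.29, and 288 of the 4664 genes, itself included, lay as far down in that library. Of the 83 members 17 had their lowest value there, so the level of Rpl15 itself was not unusual.

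**Figure D5:**
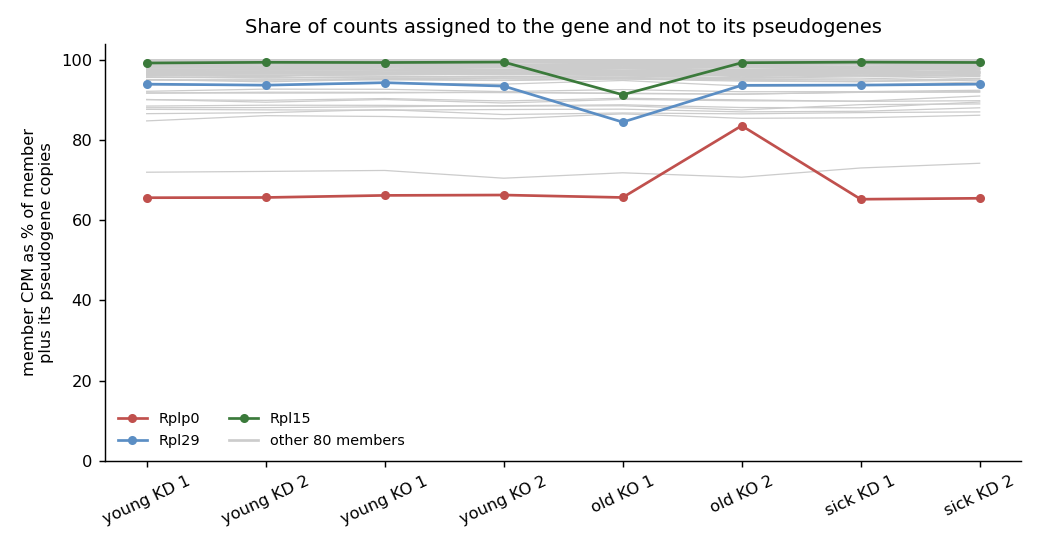
CPM of each member as a percentage of the CPM of the member plus all pseudogenes that share a 50-base window with it, by library. The grey lines of the other 80 members are nearly flat, while Rplp0 rises to 83.6% in old KO 2 and Rpl29 and Rpl15 drop to 84.5% and 91.3% in old KO 1.

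The same ratio was nearly constant for the other members. Over all 83 the median range across the 8 mice was 0.40 percentage points. Summed over the 726 pseudogenes that share a window with a member, pseudogene counts were 3.51% to 3.97% of the member counts, with 3.94% and 3.79% in sick KD, so counts on copies and on genes were higher together in the sick mice. A median of 41.8% of the 50-base windows of a member's transcript occurred in transcripts of other genes, with a range of 0% to 91.1%. In the 16 members with at most 20% such windows 8 rose in sick against young KD, with a median of 0.41, and in the 22 with over 60% 10 rose, with a median of 0.39.

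Within the pool, proportions differed more between sick and young KD mice than within the young KD, young KO or sick KD group. The SD over members of the log2 ratio of pool shares was 0.05 between the 2 young KD mice, 0.06 between the 2 young KO and 0.07 between the 2 sick KD mice. It was 0.17 to 0.19 between sick and young KD mice. Rpl38 went from 0.49% and 0.51% of the pool in young KD to 0.68% and 0.69% in sick KD, and Rpl9 from 1.36% and 1.34% to 1.02% and 1.04%. The 2 old KO mice differed more, by 0.26, a value that includes Rpl29. Rpl29 held 0.06% of the pool in old KO 1 and 0.28% in old KO 2. It was the 1 member whose share differed by more than 0.5 on the log2 scale between these mice. The SD without Rpl29 was not computed, so old KO cannot be set beside the other groups here.

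The members were set beside the 76 mitochondrial ribosomal proteins, which build the ribosome of the mitochondrion and carry the corresponding symbols. In sick against young KD 10 of these were called higher and 1 lower, with a median log2 fold change of 0.19, and in old KO against sick KD 0 were called higher and 7 lower, with a median of -0.17. As shares these were 13.2% higher and 1.32% lower in sick KD, and 9.21% lower in old KO, beside the 9.45%, 11.4% and 8.22% of all genes given above, so the 7 lower lay near the background. Mrpl58 (0.57 ± 0.11), Mrpl42 (0.55 ± 0.10) and Mrps28 (0.55 ± 0.12) rose most in sick KD, and Mrpl49 fell (-0.59 ± 0.13, adjusted p = 0.0254 in edgeR). No test of the lists against each other was made.

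Other genes of the translation machinery were described from lists. Of 29 initiation factors 6 rose and 3 fell in sick against young KD, with a median of 0.10. These are 20.7% and 10.3%, beside 9.45% and 11.4% of all genes. Pabpc1, the poly(A)-binding protein, itself a TOP mRNA, had 379.5 and 337.4 CPM in young KD and 672.3 and 672.6 in sick KD (0.90 ± 0.12, adjusted p = 0.00777 in edgeR). Eif3k rose by 0.50 and Eif4b fell by 0.54. Of 7 elongation factors 0 were called, and Eef1a1 had 0.35 ± 0.12 (adjusted p = 0.0775 in edgeR). Of 6 other ribosome-associated TOP genes Tpt1 rose (0.59 ± 0.11, adjusted p = 0.0195 in edgeR) and Hnrnpa1 fell (-0.61 ± 0.11, adjusted p = 0.0165 in edgeR).

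Ribosome assembly factors were called in both directions. Of 77 measured, 5 rose and 5 fell in sick against young KD, with a median of 0.11. Each is 6.49%, below the 9.45% of all genes called higher and the 11.4% called lower. Rrp1b (0.69 ± 0.12) and Nhp2 of box H/ACA particles (0.59 ± 0.10) rose, and Bms1, a GTPase of small subunit assembly, fell from 125.6 and 118.4 to 70.9 and 70.1 CPM (-0.80 ± 0.10, adjusted p = 0.00722 in edgeR). Sbds, mutated in Shwachman-Diamond syndrome, fell too (-0.61 ± 0.13, adjusted p = 0.0270 in edgeR). Of 15 genes of RNA polymerase I, which makes ribosomal RNA, 1 rose (Taf1d, 0.47) and 1 fell (Ubtf, -0.46). Of 18 regulators of ribosomal protein synthesis 3 rose and 1 fell, with Myc at 21.1 and 25.2 CPM in young KD and 31.9 and 44.3 in sick KD (0.71 ± 0.19, adjusted p = 0.0413 in edgeR). The RNA polymerase I genes were called at 6.67% each way and the regulators at 16.7% higher and 5.56% lower. These lists had medians between 0.01 and 0.11.

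Small nucleolar RNAs are annotated on the same strand within the bounds of 30 of the 83 members, 58 of them in all. Of these 30 members 12 rose in sick against young KD, with a median of 0.33. Of the 53 members without one 30 rose, with a median of 0.44. Members also overlap genes on the other strand in 24 cases, and the strand setting of the counting is not given in the sources used here.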

How the data were processed

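Whole BM RNA of 8 mice, 2 per group, was measured by RNA-seq. The authors made stranded poly(A) libraries, aligned paired reads to mm10 with TopHat 2.0.10, used Samtools, assigned them to Ensembl genes by HTSeq, and deposited the raw counts of each gene without normalization. The Ensembl release, HTSeq version and strand setting are not given in the sources used here. Each file holds 41214 genes and 5 tallies, which were left out of library sizes and tests. Alignments outside genes were 26.9% to 42.0% and ambiguous ones 0.461% to 0.580% of unique alignments.

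Symbols, places and lengths were those of GENCODE M21 (GRCm38, equivalent to mm10), which gave 40254 identifiers a symbol, and start sequences from RefSeq (GRCm38.p6). No genome sequence was used, so windows of 50 bases were compared with annotated transcripts, pseudogenes included. Library sizes were 26642067 to 42679114 counts, at which the spread between mice, not counting, limits the members. Counts of the 2 mice of a group differed well beyond Poisson sampling (chi-square over its degrees of freedom, 21.8 to 35.9 across genes), so none was merged. Across the members it was 10.6 in young KD, 175 in young KO, 115 in old KO and 83.1 in sick KD. The median log2 difference of members, replicate 1 minus 2, was 0.17 in young KO, -0.15 in old KO and -0.12 in sick KD. Members of a library thus moved together, and numbers of members above or below zero are not separate observations.

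Differential expression was tested by edgeR 4.0.16 under R 4.3.3 (TMM, filterByExpr, quasi-likelihood F test), each comparison on its own 4 mice and the interaction on all 8, with Benjamini-Hochberg adjustment over all tested genes and a threshold of 0.05. All 83 members passed the filter in every fit. Standard errors were obtained from each fold change and its F statistic (size of the log2 value over the root of F). Alternatives were DESeq2 1.42.0, RLE factors, TMM factors without the members, leaving out small, histone and mitochondrially encoded RNA, no filter, all 8 mice fitted together, removal of each library's GC and length trend by offsets, and leaving out each mouse. The scripts were tested on simulated data.

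Named were members with a known role, paralogs and their parents, anemia genes, the 5 highest and 5 lowest per kb, and up to 6 per comparison and direction with the largest fold change past the threshold. Some members and list genes that fit this rule are not reported here by name but stay in every fit and count. Where fewer than 3 passed, the 3 largest in each direction are given. From each list up to 3 genes past the threshold were named, with a few others as values. Members and lists were chosen with earlier results of these data known. Labels share no mouse number between groups.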

Additional observations from a re-analysis of the deposited data

Results flagged for a closer look

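The difference between KO and KD was itself different in old and sick mice from that in young mice for 4 members, by edgeR's interaction test in all 8 mice. These are 4.82% of the 83 members, near the 3.11% of all 15102 genes called lower. In most fits with a mouse left out these 4 members were not called. For Rpl38 the change was -0.85 on the log2 scale, from 0.02 between young KO and young KD to -0.83 between old KO and sick KD. For Rpl39 it was -0.81, from -0.00 to -0.80. For Rps27l it was -0.62, from 0.16 to -0.45, and for Rpl10a -0.61, from -0.00 to -0.60. Disease, age and the library measures given above change together in this contrast and cannot be told apart. With the GC and length trend removed the values were -0.64 for Rpl38, -0.65 for Rpl39 and -0.58 for Rpl10a, still past the threshold, and -0.27 for Rps27l, no longer past it.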

How the results depend on the processing

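No paired analysis was possible because the labels share no mouse number between groups. With 2 mice per group, 1 mouse decides many calls, and where a mouse was left out the lone mouse of its group was assumed to vary like those of the other group. The 13 members lower in old KO than in sick KD became 44 with DESeq2, 44 with all 8 mice fitted together and 22 with the GC and length trend removed, and 0 to 6 with a mouse left out. The 42 higher in sick than in young KD ranged from 34 to 59 over the settings other than leaving out a mouse, and from 0 to 56 with a mouse left out. The 4 members of the interaction became 19 with DESeq2, 17 without a filter and 10 with the GC and length trend removed. Of all genes, those called lower went from 469 to 765, 1142 and 952 in these fits. In most fits with a mouse left out these 4 members were not called. In old against young KO the count lower was 0 to 1, the 1 being Rpl29 without old KO 2. With the GC and length trend removed, 2 named members of sick against young KD changed sign, Rpl22l1 to -0.10 and Rpl36a to -0.016. Among values of named members, 167 kept their direction and side of the threshold in settings other than leaving out a mouse, 9 lost the threshold and 2 changed sign. With a mouse left out, 47 kept both and 73 lost the threshold. The cause was not tested. The order by level per kb kept 1 of the 5 highest with the union of exons as length and 3 with the principal transcript, a length chosen after the data were seen, and 5 and 4 of the 5 lowest. Reads that align in several places were not counted, and how many of them came from members cannot be read from the tallies.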
